A study of Mus musculus with 2 samples.

Results

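CTCF binding was examined across the imprinted domain of distal mouse chromosome 7, which holds the genes H19, Igf2, Ins2, Th, Ascl2, Cd81, Kcnq1, Kcnq1ot1, Cdkn1c and Phlda2. The domain was taken as chr7:142450000-143700000 on the mm10 build, and its members were the conservative peaks with a summit in that window. These were 46 of 43344 such peaks, counted over the autosomes and X. That set is the list that passed a test of reproducibility between replicates (the irreproducible discovery rate, IDR). The window was split midway between Th and Ascl2, at position 142933408, into an H19 to Igf2 section and a Kcnq1 section.

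The 2 libraries were ChIP-seq replicates of CTCF in E14TG2a.4, a male embryonic stem cell line of the 129/Ola strain with a stated age of 3.5 days. They formed a single group with no treatment and no second genotype, so conditions could not be compared and no test between groups was possible. The line is of a single inbred strain, so maternal and paternal alleles cannot be told apart, and a line kept in culture need not hold the imprints of the embryo. Without read counts in the lists, the depth behind each value is unknown, and n = 2 limits the precision of every spread given here.

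CTCF is a zinc-finger protein that binds DNA at insulators and at the bases of chromatin loops. At H19 and Igf2 it is known to bind the unmethylated imprinting control region upstream of H19 on the maternal chromosome, where it keeps enhancers beyond H19 from acting on Igf2. Methylation of the same region on the paternal chromosome is known to block that binding. In the Kcnq1 section the control region is the start of Kcnq1ot1, a long noncoding RNA that runs antisense inside Kcnq1 and is known to silence neighbouring genes such as Cdkn1c and Phlda2 in cis on the paternal chromosome.

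Matches to a CTCF word in the H19 control region are shown first because the region is known for its CTCF sites and the lists were searched for binding there. The control region was taken as the stretch from 2 to 4 kb upstream of the H19 start. On mm9, the build with a genome sequence here, that was chr7:149766048-149768048, between genes. The word GGNGGCAG, a part of the textbook H19 sites, was searched on both strands and found 5 times in these 2001 bases. Of 70842 windows of that length along chromosome 7, 39.0% held the word and 0.764% held it at least 4 times. The Kcnq1ot1 control region held it 0 times. The word was chosen from known sites of the H19 region, so these counts are no test of either region. Capitals mark the 19 bases that best fitted the CTCF motif around each word, the coordinates are those of the capitals, and 20 bases are shown on either side, read 5′ to 3′ on the strand given.
Word match at 2172 bp, chr7:149766211-149766229 (-): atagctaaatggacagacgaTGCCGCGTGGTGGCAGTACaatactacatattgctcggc
Word match at 2627 bp, chr7:149766666-149766684 (-): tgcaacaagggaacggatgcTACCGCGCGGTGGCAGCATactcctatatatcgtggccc
Word match at 3653 bp, chr7:149767692-149767710 (-): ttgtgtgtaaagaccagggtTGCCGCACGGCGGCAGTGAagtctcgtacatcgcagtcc
Word match at 3773 bp, chr7:149767812-149767830 (-): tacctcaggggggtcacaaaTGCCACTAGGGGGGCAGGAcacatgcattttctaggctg
Word match at 3897 bp, chr7:149767936-149767954 (-): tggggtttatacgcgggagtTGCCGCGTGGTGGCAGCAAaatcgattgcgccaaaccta

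All 5 matches lay on the minus strand, the strand of H19, at 2172, 2627, 3653, 3773 and 3897 bp upstream of its start. The matches at 2172 and 3897 bp held 2 CpG dinucleotides each, those at 2627 and 3653 bp held 3 each, and the match at 3773 bp held 0. Which of the matches are the known sites of the region was not tested. CpG is the dinucleotide that DNA methylation acts on in mammals. The motif scores were 9.0, 7.5, 6.3, 6.2 and 8.8 bits in that order. A score compares a site with a 19-base motif learned from peaks on the other chromosomes, whose most frequent bases were GGCCACCAGAGGGCGCTAG. All 5 were below 12.6 bits, the best score that 5% of windows beside peaks reach, so a search at that level does not list them.

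CTCF peaks were not listed over these matches in embryonic stem cells. The mm9 lists had 0 peaks that overlap the H19 control region in the pooled data, 0 in replicate 1 and 0 in replicate 2. The nearest pooled mm9 peaks lay 42.2 kb on one side, inside Mrpl23, and 28.5 kb on the other, with enrichment values of 8.86 and 9.0 against a median of 11.96 for all pooled mm9 peaks. On mm10 the region was chr7:142580146-142582146, and the conservative and optimal sets held 0 peaks there.

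The mm10 lists that also hold background entries reach far below the peak threshold, and they showed only weak entries at the H19 control region. The pooled list had 0 entries in it. Replicate 1 had 1 entry (142580469 to 142580784), with a signal of 5.92 and a −log10 q of 0.175, and its summit lay at -2.48 kb from the start. Replicate 2 had 1 other entry (142581637 to 142581952), with a signal of 6.11 and a −log10 q of 0.326, at -3.65 kb. The entries of the replicates did not share a summit. The median of all entries was 6.74 in replicate 1 and 6.08 in replicate 2, so the first lay below its list's median and the second just above it. The lowest signal in the pooled list was 7.60, so a weaker signal would not be listed, and a missing entry does not show that binding was absent. H19 itself held 0 conservative peaks between its ends.

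At the start of Kcnq1ot1 the lists held only weak entries as well. The control region was taken as 2 kb on either side of the start (mm10, 143294547 to 143298547). The pooled list had 1 entry, of signal 8.22 against a list median of 9.57. Replicate 1 had 2 entries, the higher at 6.55, and replicate 2 had 1 entry at 5.63, below the list medians in each case. The conservative and optimal sets and all 3 mm9 lists had 0 peaks there. On mm9 the best motif score in the Kcnq1ot1 region (150480452 to 150484452) was 8.9 bits, next to 9.0 bits in the H19 region. CpG dinucleotides were about as dense in both, at 2.82 and 3.00 per 100 bp.

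**Figure D1:**
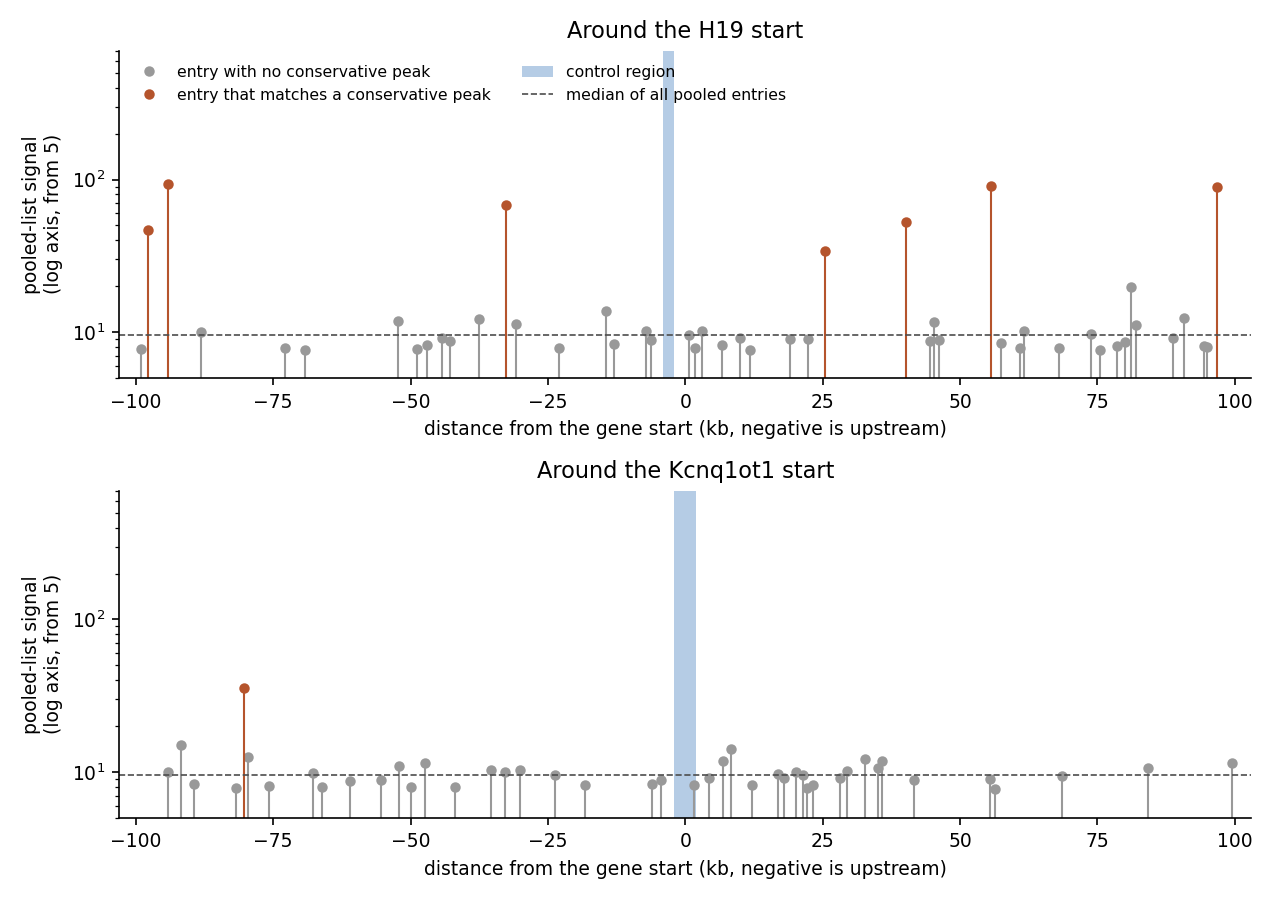
Entries of the pooled list within 100 kb of the H19 start (top) and the Kcnq1ot1 start (bottom). The x axis is the distance from the start in kb, negative upstream, and the y axis is the deposited signal on a log axis that starts at 5. Orange stems match conservative peaks, grey stems do not, and the blue bands are the control regions. Around H19 there were 7 orange stems and around Kcnq1ot1 1, and neither band holds one.

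Around the H19 start the pooled list had 48 entries within 100 kb, of which 7 matched conservative peaks. The other 41 had a median signal of 8.84 and a highest of 19.7. Around the Kcnq1ot1 start it had 44 entries, of which 1 matched a conservative peak, and the other 43 had a median of 9.45 and a highest of 15.1. The conservative peaks next to the H19 control region were 27.5 kb away inside Nctc1 (142552538 to 142552853, signal 34.1) and 28.6 kb away inside Gm33148 (142610593 to 142610908, signal 67.8). Nctc1 is a noncoding RNA gene beside H19, and its peak was the weakest of the H19 to Igf2 section, with a signal of 14.1 in replicate 1 and 19.4 in replicate 2.

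The widest stretch without a conservative peak in the domain was the middle of Kcnq1, a gene for a potassium channel of heart and inner ear. It ran 192.5 kb, from the summit at 143184465 to that at 143376937, and held all of Kcnq1ot1 (143213111 to 143296547). In the H19 to Igf2 section the widest gap was 61646 bp. The stretch was not empty of background entries. The pooled list had 44 there, or 22.9 per 100 kb against 24.1 over the whole domain, and the strongest had a signal of 14.0 and rank 58091. The figure for the domain also counts entries of conservative peaks, which the stretch leaves out, so the densities are not on the same basis. Replicate 1 had 37 entries there and replicate 2 had 35. The 3 conservative peaks at the edges of the stretch were weak, with pooled signals from 8.7 to 35.5. The weakest, whose summit at 143184465 sets the lower edge, had a −log10 q of 0.20. Its signal was below the median of all pooled entries, 9.57, so that edge rests on a peak at background level. The pair at 143184100 to 143184415 and 143184307 to 143184622 overlapped each other. The first was matched only in replicate 2 (signal 8.03) and the second only in replicate 1 (11.2), and neither was in the optimal set. The summits of the pair lay at 143184258 and 143184465, too far apart for 1 entry to match both within 100 bp. Relative signal was 0.211 in replicate 2 for the first and 0.276 in replicate 1 for the second. The peak at 143376779 to 143377094 had a signal of 22.2 in replicate 1 and 9.95 in replicate 2, the widest ratio among the matched peaks of the domain.

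**Figure D2:**
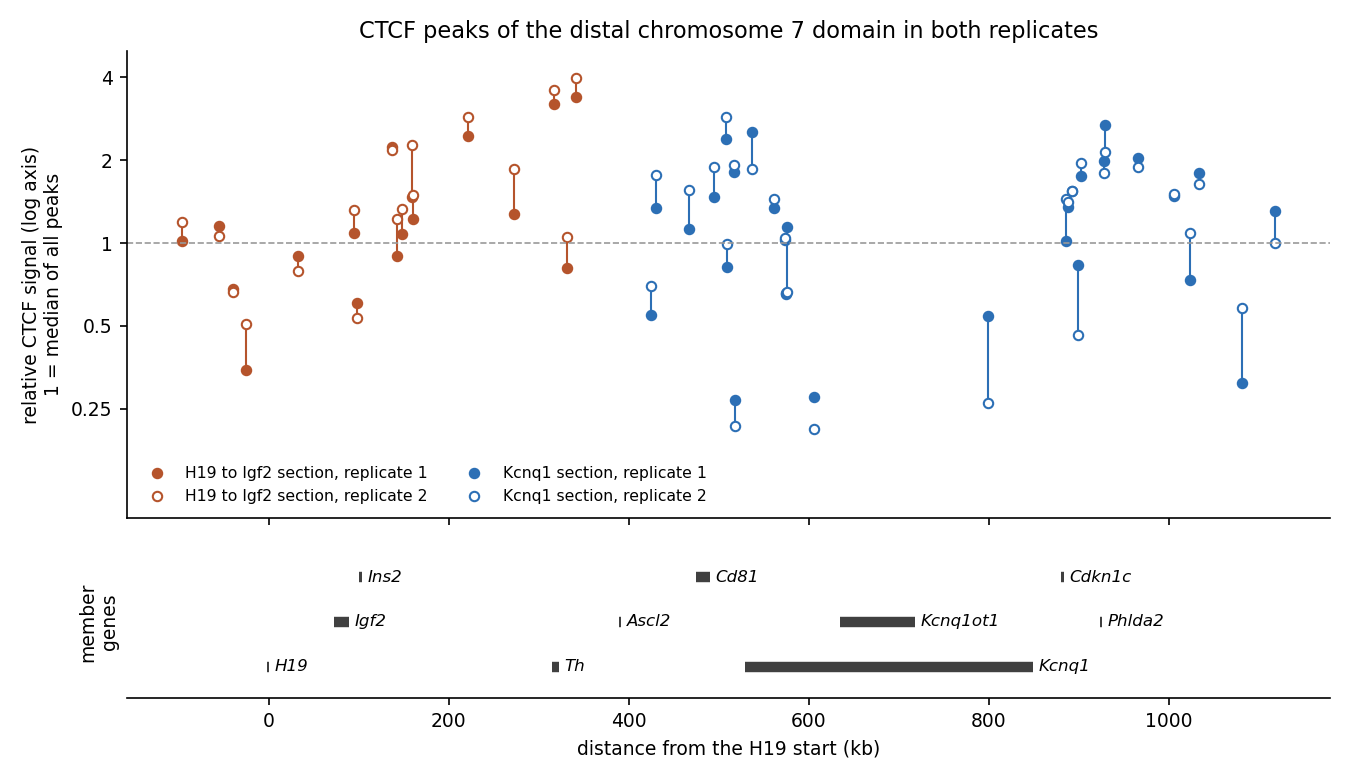
Relative signal of the 46 conservative peaks in replicate 1 (filled) and replicate 2 (open) on a log axis, where 1 is the replicate's median over all conservative peaks, by distance from the H19 start in kb. Lines join the replicates of a peak, and bars below are the member genes. The highest values lie in and upstream of Th in the H19 to Igf2 section, and the widest gap lies over Kcnq1ot1.

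Both sections were covered by CTCF peaks at a similar density. The H19 to Igf2 section held 17 conservative peaks over 483.4 kb, or 3.52 per 100 kb, and the Kcnq1 section 29 over 766.6 kb, or 3.78 per 100 kb. The ratio was 0.930, and it ranged from 0.866 to 1.08 over the alternative peak sets and borders. Consecutive autosomal windows of the domain's length held a median of 17 peaks, with quartiles of 8 and 31, and 46 in the domain was above the upper quartile.

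Relative signal sets each peak against its replicate's median over all conservative peaks. It also differed little between the sections. The median over peaks was 1.20 in the H19 to Igf2 section, from 1.08 in replicate 1 and 1.32 in replicate 2 (SD 0.167, n = 2). In the Kcnq1 section it was 1.38, from 1.32 and 1.45 (SD 0.0849, n = 2). The Kcnq1 section was higher within each replicate, but its value in replicate 1, 1.324, was close to that of the H19 to Igf2 section in replicate 2, 1.32. With the sections reduced to the stretch between their outer member genes the order turned, at 1.36 for H19 to Th and 1.34 for Ascl2 to Phlda2. Of the 17 and 29 peaks, 12 and 18 were above the median pooled signal of all conservative peaks, 77.2. The strongest 10% of all conservative peaks took in 4 of the first and 3 of the second.

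Most of these peaks had a similar strength in both replicates. Of the 46, 44 were matched in both replicates within 100 bp, against 95.5% of all conservative peaks, and 43 had a summit in the optimal set, against 93.2%. Relative signal differed by more than 1.5-fold between replicates in 5 of the 44, or by more than 2-fold in 1, and 17.4% of all matched peaks passed 1.5-fold. The SD of the log2 ratio was 0.26 in the H19 to Igf2 section, 0.45 in the Kcnq1 section and 0.44 over all peaks. Replicate 2 was higher in 29 peaks and replicate 1 in 15. Besides the peak at the far edge of the Kcnq1 gap, the peaks more than 1.5-fold apart were in Gm39116, in Kcnq1, in Slc22a18 and near E230032D23Rik.

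**Figure D3:**
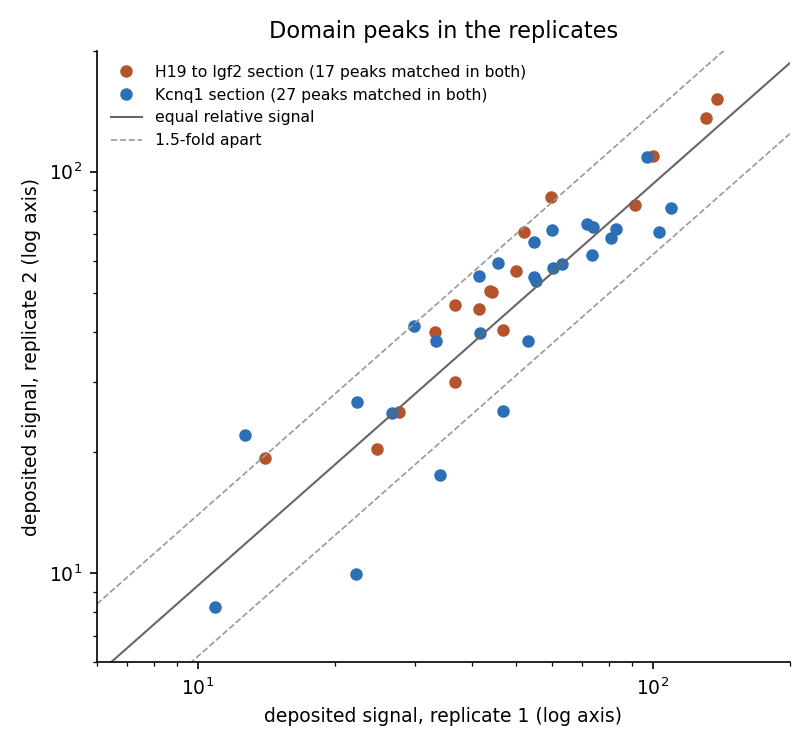
Deposited signal of the 44 domain peaks matched in both replicates, replicate 1 on the x axis and replicate 2 on the y axis, both log axes. The solid line marks equal relative signal and the dashed lines 1.5-fold apart. Of the points, 5 lie outside the dashed lines, 4 of them from the Kcnq1 section.

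Around Igf2 and Ins2 the peaks were of middling strength and none lay inside either gene. Igf2 encodes a growth factor of the fetus and Ins2 encodes insulin. Igf2 (142650768 to 142666816) had its nearest peak 5527 bp upstream of its most upstream start, at 142672283 to 142672378. The signal there was 44.2 in replicate 1 and 50.2 in replicate 2, and the relative signal was 1.20 ± 0.167 (SD, n = 2). Ins2 had a peak 3844 bp downstream of its start, beyond the end of the gene (142675724 to 142676039). That peak was weaker, at 24.8 and 20.4, with a relative signal of 0.572 ± 0.0503 (SD, n = 2). Both replicates therefore placed the peak next to Igf2 above the one next to Ins2.

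Between H19 and Igf2 there was 1 peak, at Gm33148, a predicted noncoding RNA gene. Its summit lay 68 bp upstream of an annotated start of Gm33148, and its signal was 36.8 in replicate 1 and 29.99 in replicate 2. The RefSeq promoter window of that start on mm10 held a motif match of 13.6 bits, 9 bp from the summit. On mm9 the same 19 bases were the best site of the fifth peak of the domain, with 2 CpG dinucleotides.
Gm33148 start, chr7:149796656-149796674 (+): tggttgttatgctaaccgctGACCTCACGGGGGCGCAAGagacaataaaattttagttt

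The highest pooled CTCF signals of the domain lay from Ins2 to the stretch upstream of Th. Th encodes tyrosine hydroxylase, the rate-limiting enzyme of catecholamine synthesis. The highest signal of the domain was 290.7 in the pooled list, at 142919312 to 142919584, 19451 bp upstream of the Th start and outside genes. It was 138.7 in replicate 1 and 151.7 in replicate 2, with a relative signal of 3.70 ± 0.418 (SD, n = 2) and rank 182 of all conservative peaks. The next was inside Th (142894707 to 142894962), at 130.9 and 136.3, with 3.40 ± 0.266 and rank 331. The third in the pooled list, at 142799500 to 142799728, had 100.2 and 109.5, with 2.67 ± 0.3003. Each of the 3 was high in both replicates. A weaker peak, 9820 bp upstream of Th, lay between the first and the second, at 33.2 and 39.9.

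The remaining peaks from Ins2 to Th lay inside predicted noncoding genes. Gm39116 held 5, with pooled signals from 86.4 to 172.1, and Gm6471 held 1 of signal 124.4. The strongest in Gm39116 by pooled signal, at 142714766 to 142714964, had 91.2 in replicate 1 and 82.6 in replicate 2.

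On mm9 the same stretch had 6 consecutive pooled peaks, the eighth to the thirteenth of the domain, whose best motif sites came from like sequences. They are shown because the likeness reaches beyond the motif into both flanks. Capitals are the 19 bases of the site. Gene models of GENCODE vM1 place the thirteenth in an intron of Gm6471 and the others between genes.
Peak 8, chr7:149900765-149900783 (-): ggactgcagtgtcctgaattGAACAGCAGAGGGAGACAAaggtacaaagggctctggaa
Peak 9, chr7:149906831-149906849 (+): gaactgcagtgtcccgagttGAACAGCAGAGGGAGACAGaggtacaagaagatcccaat
Peak 10, chr7:149912110-149912128 (+): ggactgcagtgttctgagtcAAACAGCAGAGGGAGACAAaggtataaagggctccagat
Peak 11, chr7:149923858-149923876 (-): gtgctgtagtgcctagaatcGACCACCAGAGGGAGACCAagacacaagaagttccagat
Peak 12, chr7:149985535-149985553 (+): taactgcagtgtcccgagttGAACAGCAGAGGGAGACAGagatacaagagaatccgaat
Peak 13, chr7:150036759-150036777 (-): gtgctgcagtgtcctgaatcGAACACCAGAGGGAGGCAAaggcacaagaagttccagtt

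Of the 59 bases shown, peaks 9 and 12 shared 54, peaks 8 and 10 shared 51, and peaks 11 and 13 shared 50, compared base by base on the motif strand. The median over all 820 pairs of mm9 peaks in the domain was 22. Each of the 6 shared at least 40 bases with another of them. No other peak of the H19 to Igf2 section did so, and no pair across the sections did. The 19 bases of peaks 9 and 12 were identical and occurred 2 times on chromosome 7, both in these peaks. The 19 bases of the other 4 occurred once each on that chromosome. Peak 11 also held another site with like flanks (149923029 to 149923047, plus strand, 15.8 bits), which is not counted here. The 6 sites shown, 1 for each peak, had 3 in each orientation and 0 CpG dinucleotides. Their scores ran from 11.9 to 16.2 bits, and the enrichment values of the peaks from 12.7 to 25.04.

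The strongest mm9 peaks of the section lay within Th as GENCODE vM1 draws it, in introns, with enrichment values of 27.7 and 30.7 in the pooled list. Replicate 1 gave 34.3 and 35.6 and replicate 2 gave 37.4 and 44.3. Their sites are shown as the strongest of the domain. They differed from the run of like sites above, since neither shared 40 bases with any other peak.
Peak 14, chr7:150080760-150080778 (+): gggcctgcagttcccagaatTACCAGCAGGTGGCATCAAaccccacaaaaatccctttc
Peak 16, chr7:150105352-150105370 (-): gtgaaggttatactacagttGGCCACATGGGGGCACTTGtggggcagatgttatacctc

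In the Kcnq1 section Ascl2 had no conservative peak close by. Ascl2 encodes a transcription factor that trophoblast needs. Its nearest conservative peak lay 33601 bp upstream of its start, beside Tspan32 (143002707 to 143003022, 22.4 in replicate 1 and 26.7 in replicate 2). Cd81, a tetraspanin gene, had its nearest peak 7742 bp upstream, inside R74862 (143044850 to 143045165), at 45.7 and 59.1. Of these, the peak near Cd81 was the stronger in both replicates. On mm9 the first pooled peak of the section (150143483 to 150144244) was weak, at 4.64, and was in neither replicate list. Its distance from Ascl2 was not measured.

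Trpm5, a gene for a cation channel of taste cells, carried the strongest peak of the section in the pooled list, at 206.2. It lay 8112 bp inside the gene (143086410 to 143086641), at 97.2 in replicate 1 and 109.0 in replicate 2. In replicate 1 a peak upstream of Phlda2 (109.9) and a peak in Kcnq1 (103.2) were higher. A peak at 272 bp upstream of the Trpm5 start (143094809 to 143095017) had 73.8 and 72.8, a relative signal of 1.86 ± 0.0742 (SD, n = 2). Among the 15 listed other genes with a known start in the window, it was the single case of a peak within 1 kb. Gm33148 and Gm33663, which are not on that list, also had one. A weak neighbour 1284 bp upstream (143095768 to 143096083) had 10.9 and 8.23 and was not in the optimal set.

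Kcnq1, the longest of the members at 320.2 kb, held 8 peaks, more than the other members. The counts were not adjusted for gene length. Th held 1 and each of the others 0. Of the 8, 5 lay between 8068 and 47099 bp from the Kcnq1 start, before the wide gap. The strongest of them, at 143114862 to 143115052, had 103.2 in replicate 1 and 70.9 in replicate 2 and was thus higher in replicate 1, with a relative signal of 2.20 ± 0.471 (SD, n = 2). The 3 peaks beyond were the weak ones at the edges of the gap, with pooled signals of 8.7 to 35.5. The nearest peak to the Kcnq1ot1 start was the far edge of the gap, 80390 bp upstream.

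Cdkn1c and Phlda2, which restrain growth of embryo and placenta, both had peaks within 5 kb upstream of their starts. Cdkn1c encodes an inhibitor of cyclin-dependent kinases. Its peak lay 3069 bp upstream (143464063 to 143464147), at 41.5 in replicate 1 and 55.0 in replicate 2, with a relative signal of 1.23 ± 0.304 (SD, n = 2). Phlda2 had a pair of peaks at 3558 and 4407 bp upstream. The nearer (143505964 to 143506173) had 81.0 and 68.5, and the farther (143506818 to 143507044) had 109.9 and 81.3. Both were higher in replicate 1 and both were above the peak of Cdkn1c in each replicate.

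From the Cdkn1c peak into Slc22a18, a gene for a membrane transporter, there was a run of 5 peaks. Among them, the peak at 143466444 to 143466577 lay 45 bp upstream of Gm33663, a predicted noncoding RNA gene, with 55.3 in replicate 1 and 53.5 in replicate 2. The RefSeq promoter window of Gm33663 held a motif match of 21.4 bits that spans the start. Of 30 promoter windows in the domain, 2 held a match at or above 19.1 bits, both of Gm33663, against 0.8001% of 32619 promoter windows. These windows (143466448 to 143466747 and 143466449 to 143466748) nearly coincide and hold the same site, so this is a single match. Peaks inside Slc22a18 were at 34.04 and 17.6 (143476716 to 143477031) and at 71.6 and 74.0 (143480588 to 143480795). The first of these was one of the peaks more than 1.5-fold apart.

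Counted together, 3 of the 10 member genes had a conservative peak within 5 kb of a start (Ins2, Cdkn1c and Phlda2), against 26.2% of 35538 genes. Within 1 kb it was 0 of 10, against 8.67% of all genes. Within 10 kb it was 7 of 10, against 40.5%, and the members without a peak there were H19, Ascl2 and Kcnq1ot1. Of the list of 23 other genes, 15 had a known start in the window, of which 1 had a peak within 1 kb, 6 within 5 kb and 10 within 10 kb. Both lists are short, and the share of 3 in 10 is close to that of all genes.

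Beyond Phlda2 the peaks lay mainly inside genes. That in Nap1l4, a gene for a histone chaperone, had 82.9 in replicate 1 and 72.1 in replicate 2. That in Cars, which encodes a tRNA synthetase, had 60.5 and 57.5, and that in Tnfrsf26, a receptor gene, had 73.4 and 62.1. The last of the window lay in Osbpl5, at 53.2 and 38.0. At the other end of the domain, the peaks in Lsp1 and in Mrpl23 had 41.6 and 45.4, and 27.7 and 25.2.

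Motif scores were lower in the peaks of the H19 to Igf2 section than in those of the Kcnq1 section. At the score that 1% of windows beside peaks reach, 19.1 bits, 13 of 41 mm9 peaks of the domain had a motif within 200 bp of the midpoint, against 36.8% of all pooled mm9 peaks. These were 0 of 16 in the H19 to Igf2 section and 13 of 25 in the Kcnq1 section. At 12.6 bits, the 5% score, they were 11 of 16 and 21 of 25, and 32 of 41 in all, against 79.7% of all peaks. The replicates' own mm9 lists gave 13 peaks each at the 1% score. Over the whole length of each peak, the median best score was 15.2 bits in the H19 to Igf2 section and 19.8 bits in the Kcnq1 section. Peaks are not replicates, so the difference was not tested.

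**Figure D4:**
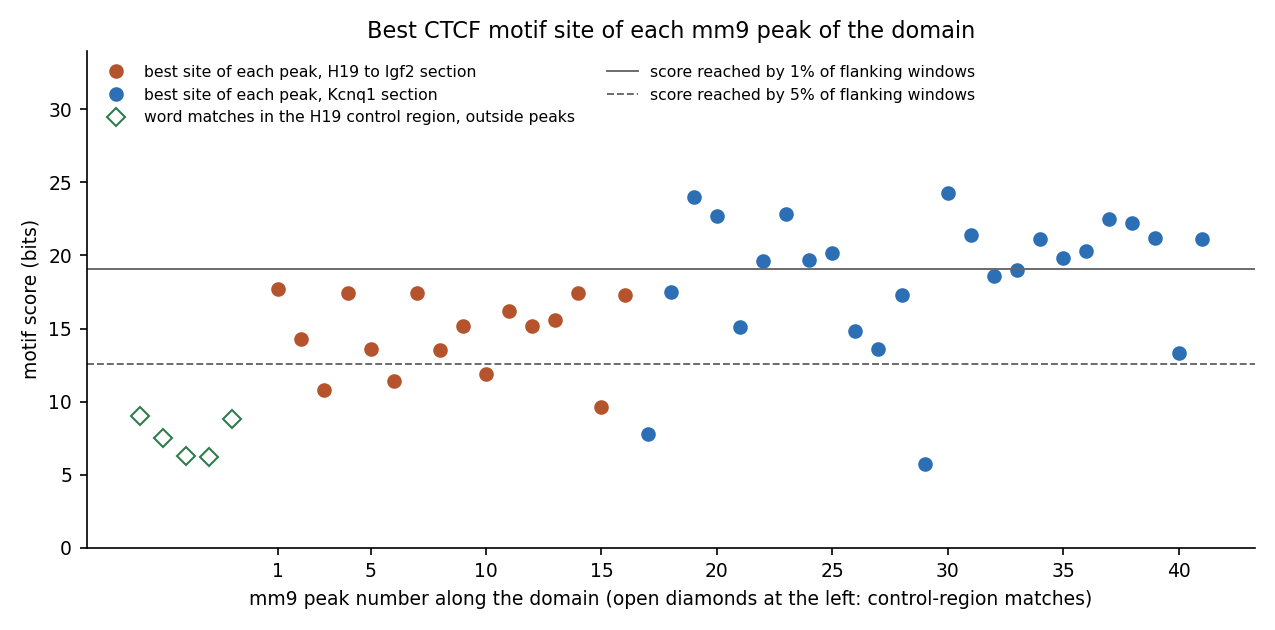
Best motif score in bits of each of the 41 mm9 peaks in order along the domain (filled), with the 5 word matches of the H19 control region as open diamonds at the left. The solid and dashed lines are the scores that 1% and 5% of windows beside peaks reach. No peak of the H19 to Igf2 section passes the solid line, 15 of the Kcnq1 section do, and the control-region matches lie below the dashed line. Peaks are scored over their whole length, but the lines come from windows of 200 bp on either side of a point. Within 200 bp of the midpoint, 13 peaks of the Kcnq1 section pass.

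Several high-scoring sites of the Kcnq1 section are shown to set beside the matches in the H19 control region. Peak 19 lay in an intron of Tspan32, peak 30 was the nearest to Cdkn1c, peak 23 lay upstream of Trpm5, the site of peak 31 has the 19 bases of the Gm33663 match, and peak 34 lay in an intron of Slc22a18. Of these 5 sites, 3 had 0 CpG dinucleotides and 2 had 1.
Peak 19, chr7:150194116-150194134 (+): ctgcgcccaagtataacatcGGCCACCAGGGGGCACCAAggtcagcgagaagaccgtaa
Peak 23, chr7:150280812-150280830 (+): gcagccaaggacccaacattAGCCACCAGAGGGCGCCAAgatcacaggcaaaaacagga
Peak 30, chr7:150649980-150649998 (-): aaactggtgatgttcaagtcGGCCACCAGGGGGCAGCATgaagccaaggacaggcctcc
Peak 31, chr7:150652398-150652416 (-): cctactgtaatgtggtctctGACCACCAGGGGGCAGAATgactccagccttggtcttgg
Peak 34, chr7:150666603-150666621 (+): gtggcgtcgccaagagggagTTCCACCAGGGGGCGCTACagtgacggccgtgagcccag

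The section also had a set of like sites of its own, in peaks 20, 38 and 39. They are shown because their flanks resemble each other as those between Ins2 and Th do, with another sequence. Peaks 20 and 39 shared 44 of 59 bases, peaks 20 and 38 shared 43, and peaks 38 and 39 shared 42. The set has no sharp border. Just below that level, peak 35 shared 39 bases with peak 38 and peak 41 shared 38 with peak 35. Peak 24 shared 37 with peak 20, and peak 36 shared 37 with peak 38. The 19 bases of peak 20 occurred 24 times on chromosome 7, and 9 of these lay inside a pooled peak. The highest-scoring site of peak 22 in Trpm5, shown with them, occurred 737 times on the chromosome, of which 25 lay inside a pooled peak. That site lay inside the peak of replicate 2 but outside that of replicate 1. Sites of 14.5 and 18.0 bits in the same pooled peak lay inside the peaks of both replicates. Which of them is bound was not tested. No repeat annotation was used here.
Peak 20 in R74862, chr7:150230909-150230927 (+): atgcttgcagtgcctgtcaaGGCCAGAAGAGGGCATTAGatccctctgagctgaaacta
Peak 22 in Trpm5, chr7:150271647-150271665 (+): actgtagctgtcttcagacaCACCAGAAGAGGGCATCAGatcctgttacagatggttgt
Peak 38, chr7:150787785-150787803 (+): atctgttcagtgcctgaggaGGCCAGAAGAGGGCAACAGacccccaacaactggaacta
Peak 39 in Tnfrsf26, chr7:150798314-150798332 (+): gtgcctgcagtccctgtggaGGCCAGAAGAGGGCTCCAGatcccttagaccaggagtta

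Seen from the sequence, 145 sites in the domain scored at least 12.6 bits, and 43 of them, 29.7%, lay inside a pooled mm9 peak, against 17.4% of 15150 such sites on chromosome 7. Of the sites from 12.6 to 19.1 bits, 13 of 52 lay in a peak in the H19 to Igf2 section and 15 of 66 in the Kcnq1 section, against 12.9% on chromosome 7. Of those at 19.1 bits and above, it was 0 of 3 and 15 of 24, against 35.0%. The 3 were copies or a near copy of the 19 bases shown for peak 22. Those bases occurred 737 times on chromosome 7, with 25 in a pooled peak, where 3089 sites reached this level. The domain is rich in peaks, with 46 conservative peaks against a median of 17 in windows of its length. The shares were not adjusted for that or for the copied sequence, so they do not show a trait of the sites themselves. A CpG dinucleotide was present in 9 of the 43 sites inside peaks and in 12 of the 102 outside. Among the best sites of the peaks that reached 12.6 bits, 6 were on the plus and 6 on the minus strand in the H19 to Igf2 section, and 15 and 8 in the Kcnq1 section.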

How the data were processed

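CTCF ChIP-seq of 2 replicates was deposited by the authors as peak lists, with no read counts. Per the deposited file descriptions, these are narrowPeak lists on mm10 (each replicate and the pooled data with background entries, and conservative and optimal IDR sets) and broadPeak lists on mm9. The signal per entry and the −log10 q or p were used as deposited by the authors. The signal's scale, the aligner, the peak caller and the IDR threshold were not given in the sources used here. Domain, member genes and gene lists were chosen with earlier results of these data known.

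Conservative peaks of the autosomes and X were paired in each replicate with the closest summit up to 100 bp away, and the paired signal was divided by the replicate's median. Gene ends on mm10 came from RefSeq GRCm38.p6, and starts from the RefSeq promoter table, or from the gene end on the GENCODE strand where that table lacks the gene (H19, Ins2, Kcnq1 and Cdkn1c). Genome sequence and gene models (GENCODE vM1) were used for mm9 only. No coordinates were converted. The Kcnq1ot1 start on mm9 was placed by the 1 exact match of its RefSeq promoter sequence. Sections and control regions were drawn from gene ends in each build.

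The 19-base motif was learned from the 4000 strongest mm9 pooled peaks outside chromosome 7. Its thresholds are the best scores that 5%, 1% and 0.1% of 69324 windows beside peaks reach (12.6, 19.1 and 21.6 bits). Matching and motif search were tested on simulated data. The named genes are the 10 members, the gene or nearest start of each peak, and a list of 23 other domain genes. The replicates are a single group, so no test was run. Alternatives covered the peak set, section borders, a minimum signal, match distance, region width, distance to starts, motif threshold and leaving out each replicate. Python 3.11.15, pandas 2.3.3, numpy 2.4.6 and pysam 0.24.0 were used.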

Additional observations from a re-analysis of the deposited data

How the results depend on the processing

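Of 45 alternative values for 10 results, 34 stayed within 1.5 times the count or within the spread between replicates. For the median relative signals, the values with a replicate left out are those that set the spread. They lie within it by construction and are no check. The Kcnq1ot1 signals with a replicate left out, 5.63 and 6.55, are on the scale of the replicate lists. Their closeness to the pooled value of 8.22 is therefore no check either. With the sections cut at their outer member genes, the H19 to Igf2 section held 11 peaks in place of 17. With only peaks at or above the median signal, the Kcnq1 section held 18 in place of 29. Without either replicate, the H19 to Igf2 section held 17 peaks. Both changes follow from counting a shorter stretch or fewer peaks. The H19 control region had 0 pooled entries and so no pooled signal. Widened to 10 kb upstream it had 2, the highest at 10.2. Leaving out a replicate gave 1 entry each, of 5.92 to 6.11, on the scale of the replicate lists. The Kcnq1ot1 region had 3 entries within 5 kb, and 1 to 2 with a replicate left out. Members with a peak near a start numbered 0 within 1 kb and 7 within 10 kb. Peaks of the domain with a motif numbered 6 at the score of 0.1% of windows beside peaks and 32 at that of 5%. A site below a threshold is not listed, and no depth is known that would bound the signal there. No paired analysis was possible because the 2 replicates form a single group.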
